A study of Arabidopsis thaliana with 24 samples.

Results

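Locus-named genes whose transcripts were higher at ZT36 than at ZT24 in water-treated Arabidopsis leaves are described here, 85 probe sets for 85 genes. They were chosen by their mean over the 6 water ZT24 arrays minus that over the 6 water ZT36 arrays, which had to be -2 or lower on the log2 scale, a level at least 4 times as high at ZT36. The choice was made among 11933 probe sets that carry 1 gene symbol made of the locus identifier alone, out of 22746 tested probe sets, and 9 genes were left out by name, 6 of which met the threshold with 7 probe sets. Because the 12 water arrays chose the members, the water difference between ZT24 and ZT36 is a description and carries no test. The differences tested below within salicylic acid (SA) come from the 12 SA arrays, which the choice did not use. The others are changes from 0 h to 3 h within water, which the choice averaged over. They use the same 12 water arrays that chose the members, so they are not independent of the choice. The spread behind the p values was estimated from all arrays together, so the water arrays also entered the SA tests.

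The samples were true leaves of wild-type Arabidopsis thaliana, 23 days old and grown on soil, and Affymetrix arrays measured the transcripts. Plants raised with a 12 h day length were moved to constant light 24 h before treatment and stayed in it. Water or 1 mM SA, a plant immune hormone, was given at ZT24 or ZT36, where ZT counts hours of zeitgeber time, and the harvest label is 0 h or 3 h after treatment, so that there are 8 groups of 3 arrays. The labels call the arrays biological replicates and do not say how plants were pooled, and the p values measure the spread between these arrays.

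In Arabidopsis the circadian clock is a set of transcription factors that repress each other in sequence, so that morning-phased and evening-phased genes peak at opposite ends of the day and go on cycling in constant light. ZT24 is the start of the subjective day and ZT36 its end, and genes that peak near dusk in leaves include clock components, cold-regulated genes and genes of carbon and amino acid use. SA is made in response to biotrophic pathogens and changes the transcription of many leaf genes through the coactivator NPR1. The study's title names a gated effect of SA on the transcriptome. None of the members has a symbol of its own in the RefSeq table used for names, where AT4G33150 alone carries enzyme names as synonyms. Protein families given below are general Arabidopsis background and were sorted into classes after the members were known, and 33 members are left without a family. Close paralogs can contribute to each other's signal on these arrays.

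The deposited log2 values are centred, probe set by probe set, on the median of all 24 arrays, so 0 is that median, a value is not an absolute level, and genes cannot be ranked by abundance. For the same reason the leaf label could not be checked against leaf markers. The labels and the data part in one respect that touches every result. The arrays labelled water 3 h lay close to those labelled water 0 h, with 0 probe sets called after ZT24 and 2 after ZT36 by limma at an adjusted p under 0.05, although 3 h of clock time lie between them. The arrays labelled SA 0 h differed from water 0 h at 3688 probe sets at ZT24 and at 6603 at ZT36, although no time lies between treatment and harvest. The SA-induced glutaredoxin gene GRX480 stood at -0.21 at ZT24 and 0.01 at ZT36 in SA 0 h against water 0 h, and rose from SA 0 h to SA 3 h by 3.77 ± 0.13 and 4.63 ± 0.13 (SE). In the same comparison with water 0 h, the SA response gene WRKY53 stood at 0.39 at ZT24 and 0.69 at ZT36. UGT76B1, also an SA response gene, stood at 0.14 and -0.12. From SA 0 h to SA 3 h WRKY53 rose by 2.98 ± 0.29 and 2.42 ± 0.29, and UGT76B1 by 7.75 ± 0.13 and 8.52 ± 0.13. Results are therefore given for the SA 0 h arrays and for the SA 3 h arrays apart. After ± stands limma's standard error of a difference between groups of n = 3, with the spread of a probe set taken from all groups, water included. The p values of limma were adjusted by the Benjamini-Hochberg method over 22746 probe sets.

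Water separated the times of treatment at every member, as the choice required. At 0 h the differences of ZT24 minus ZT36 ran from -6.51 to -1.94 with a median of -2.83, and at 3 h from -6.34 to -1.27 with a median of -2.46, beside medians over all probe sets of 0.01 and 0.03. No member had overlapping ZT24 and ZT36 groups at either label, where the groups were apart at 49.3% of all probe sets at 0 h and 51.6% at 3 h. The members just inside the threshold were AT2G18670 (-2.03), AT5G62350 (-2.03) and AT1G02300 (-2.01), and those just outside it were AT5G02860 (-1.9985), AT3G45730 (-1.99) and AT1G28070 (-1.98). The members lie on all 5 nuclear chromosomes, 23, 15, 14, 15 and 18 on chromosomes 1 to 5. Of 5814 pairs of neighbouring protein-coding genes that each have a named probe set, 4 pairs hold 2 members: AT1G07040 with AT1G07050, AT1G21670 with AT1G21680, AT4G30650 with AT4G30660, and AT5G62350 with AT5G62360. The last 3 pairs are each of 1 protein family.

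In the SA arrays the mean of the members kept the direction it had in water, at a smaller size, while 10 of 85 members at each label had the opposite sign. The mean over the 85 members lay between -1.182 and -1.004 in the 6 water ZT24 arrays and between 1.49 and 2.02 in the 6 water ZT36 arrays. It lay between -0.61 and -0.45 in SA ZT24 0 h and between -0.80 and -0.55 in SA ZT24 3 h, above every water ZT24 array. At ZT36 it lay between 0.55 and 0.75 in SA 0 h and between 0.28 and 0.56 in SA 3 h, below every water ZT36 array. For these averages the SA arrays lay between the water groups from both sides. The choice of members by their water values favours this order, and it was not tested.

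**Figure D1:**
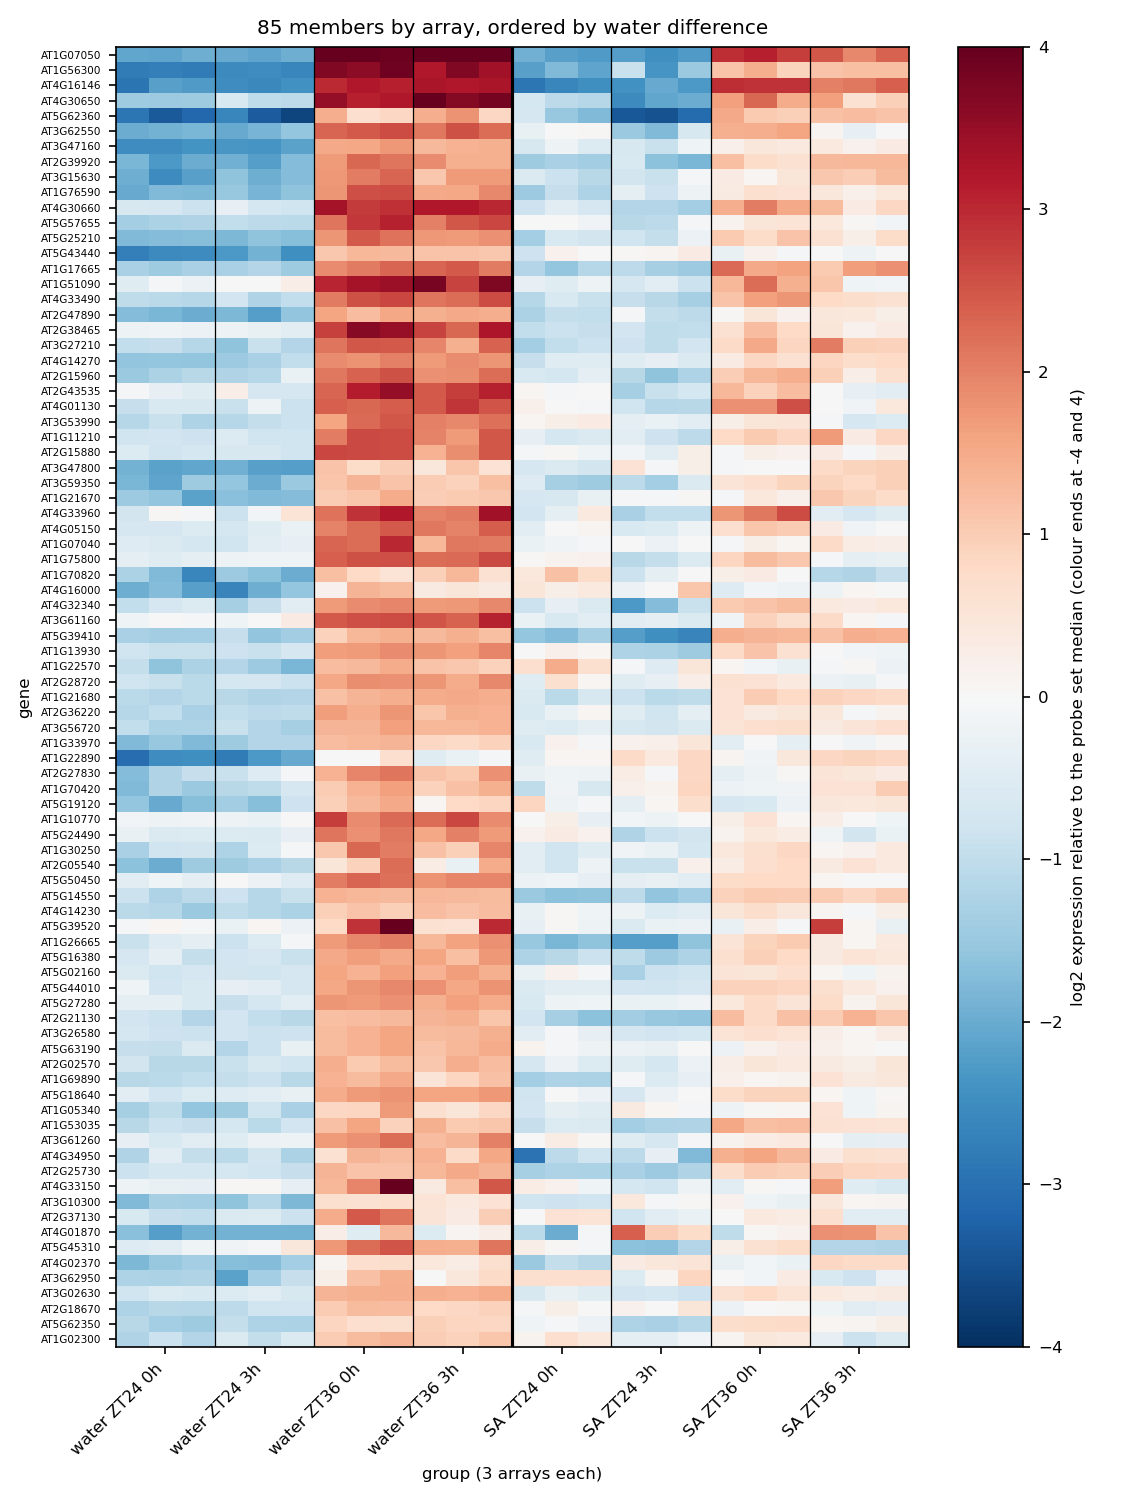
Log2 expression relative to the probe set median (colour) for the 85 members (rows, ordered by water difference) in the 24 arrays (columns, 3 per group). Water ZT36 columns are mostly red and water ZT24 columns mostly blue, since the water arrays chose the rows. The SA columns are paler, with member means between -0.80 and 0.75.

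At 0 h, 57 of the 85 members were lower in SA ZT24 than in SA ZT36 (limma, Benjamini-Hochberg adjusted p under 0.05), 1 was higher and 27 did not pass. Over all probe sets 14.6% were called lower and 9.82% higher in this comparison. The median of the members was -1.02, with a range from -5.56 to 1.04, beside a median of 0.02 over all probe sets. Groups did not overlap at 66 members, and at 39.2% of all probe sets.

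At 3 h, 54 members were lower in SA ZT24 than in SA ZT36, 1 was higher and 30 did not pass, where 16.3% of all probe sets were called lower and 11.6% higher. The median was -0.85, with a range from -4.56 to 0.71, beside 0.01 over all probe sets. The ZT36-high pattern passed at both labels for 52 members, and 24 passed at neither. The locus-named genes with the opposite pattern in water, 99 probe sets at least 2 higher at ZT24, were called higher at ZT24 in SA at 72 probe sets at 0 h and 66 at 3 h. Of 25 probe sets for genes with a symbol past the same threshold as the members, 13 were called lower at 0 h and 15 at 3 h.

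The size of the SA difference relative to the water difference of the same label varied widely among members. The median share was 36.5% at 0 h and 31.6% at 3 h, with a range from -39.7% to 156% at 0 h and from -37.5% to 144% at 3 h. The SA difference was the smaller in size at 79 members at 0 h and at 81 at 3 h. Since water values chose the members, these shares are given with no test. The SD over all probe sets within an array ran from 0.37 to 0.55 in water. It ran from 0.29 to 0.36 in SA 0 h and from 0.55 to 0.65 in SA 3 h. The part of these SDs in the sizes and shares was not tested. In the 99 probe sets of the opposite pattern, chosen in the same way, the median shares were 38.2% and 35.8%.

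**Figure D2:**
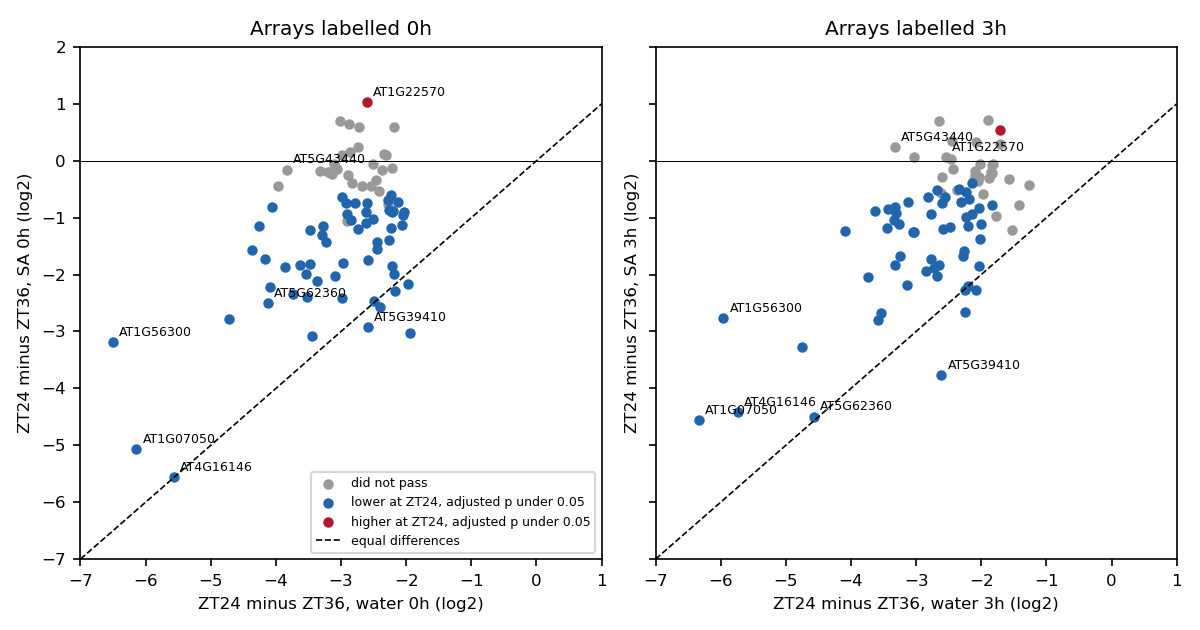
Difference of ZT24 minus ZT36 on the log2 scale in SA (vertical axis) against that in water (horizontal axis) for the 85 members, arrays labelled 0 h on the left and 3 h on the right. Blue points passed limma's test in SA as lower at ZT24 (57 and 54), the red point as higher (1 in each panel), and most points lie above the dashed line of equal differences, 79 and 81 members having the smaller difference in SA.

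Transcription and RNA genes held the member with the most negative water difference, AT1G07050, which encodes a CCT-motif protein, a motif shared with clock and flowering regulators. AT1G07050 was at -2.12, -2.06 and -1.94 (lowest, median, highest) in the 6 water ZT24 arrays and at 3.93, 4.22 and 4.38 in the 6 water ZT36 arrays. It read -1.93, -2.18 and -2.27 in SA ZT24 0 h against 2.95, 3.12 and 2.76 in SA ZT36 0 h, and -2.21, -2.44 and -2.25 in SA ZT24 3 h against 2.48, 1.93 and 2.37 in SA ZT36 3 h. All SA ZT24 arrays were low, as in water, and the SA ZT36 arrays were high but below the water ZT36 arrays. The SA difference was -5.07 ± 0.13 at 0 h (adjusted p = 2e-16) and -4.56 ± 0.13 at 3 h (adjusted p = 1.1e-15). Its neighbour AT1G07040 differed by -2.76 in water and by -0.24 and -0.52 in SA, and did not pass in SA at either label.

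Of the 6 transcription and RNA genes, 4 were lower at ZT24 in SA at each label. AT1G76590, of the PLATZ zinc-binding family, differed by -1.73 ± 0.20 at 0 h and -0.82 ± 0.20 at 3 h, and AT2G47890, a B-box protein with a CCT domain, by -1.31 ± 0.20 and -1.04 ± 0.20. AT1G26665, which encodes Mediator subunit Med10, differed by -2.47 ± 0.20 and -2.28 ± 0.20, beside -2.29 in water. Histone H2B family gene AT2G28720 (-0.44 and 0.03) and the MA3 domain gene AT5G63190 (-0.13 and -0.26) did not pass.

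Chaperone and stress protein genes included AT1G56300, which encodes a DnaJ-domain protein, a co-chaperone family. AT1G56300 was at -2.80, -2.68 and -2.48 (lowest, median, highest) in water ZT24 and at 3.19, 3.63 and 3.90 in water ZT36. It read -2.17, -1.76 and -2.12 in SA ZT24 0 h, 1.14, 1.46 and 0.89 in SA ZT36 0 h, -0.89, -2.36 and -1.49 in SA ZT24 3 h, and 1.15, 1.20 and 1.20 in SA ZT36 3 h. The SA groups stood apart at both labels but nearer to each other than in water, and SA ZT24 3 h was the most spread group (SD 0.74). The SA differences were -3.19 ± 0.23 (adjusted p = 2.3e-09) and -2.76 ± 0.23 (adjusted p = 1.7e-08).

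Of the 7 genes in this class, 5 were lower at ZT24 in SA at each label. The neighbours AT4G30650 and AT4G30660, of the low temperature and salt responsive family of small membrane proteins, differed in SA by -2.78 ± 0.23 and -2.34 ± 0.19 at 0 h and by -3.27 ± 0.23 and -2.04 ± 0.19 at 3 h. The cyclophilin gene AT2G21130, a peptidyl-prolyl isomerase family member, differed by -2.30 ± 0.17 and -2.66 ± 0.17, beside -2.21 in water. The universal stress protein genes parted: AT3G62550 differed by -1.57 ± 0.20 and -1.24 ± 0.20, whereas AT3G53990 did not pass, at -0.20 ± 0.18 (adjusted p = 0.45) and 0.06 ± 0.18 (adjusted p = 0.85). The glutaredoxin family gene AT3G62950 was at 0.59 ± 0.33 and 0.71 ± 0.33 and did not pass.

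Cell wall and secreted protein genes were led by AT5G62360, of the family that inhibits invertases and pectin methylesterases. AT5G62360 was at -3.67, -3.24 and -2.62 (lowest, median, highest) in water ZT24 and at 0.68, 1.14 and 1.79 in water ZT36. It read -0.68, -1.52 and -1.76 in SA ZT24 0 h and -3.39, -3.49 and -3.07 in SA ZT24 3 h, while SA ZT36 read 1.52, 1.06 and 0.97 at 0 h and 1.19, 1.22 and 1.13 at 3 h. SA ZT24 0 h lay above all other ZT24 arrays, and SA ZT36 lay within the water ZT36 range at both labels. The SA difference was -2.51 ± 0.29 at 0 h (adjusted p = 1.5e-06) and -4.50 ± 0.29 at 3 h (adjusted p = 3e-10). Its neighbour AT5G62350, of the same family, differed in SA by -0.90 at 0 h and -1.37 at 3 h and passed at both.

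Of the 8 genes in this class, 4 were lower at ZT24 in SA at each label. The GDSL-like lipase gene AT4G01130 differed by -2.03 ± 0.20 and -1.11 ± 0.20, and the thaumatin family gene AT1G75800 by -0.94 ± 0.13 and -0.64 ± 0.13. The extensin gene AT2G15880, a leucine-rich repeat wall protein, did not pass (-0.18 and -0.29), and neither did AT1G10770 (-0.34 and -0.14) or the glycine-rich protein gene AT2G05540 (-1.06 ± 0.40, adjusted p = 0.056, and -0.97 ± 0.40, adjusted p = 0.075).

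Metabolic enzyme genes ran from -2.92 to 0.59 at 0 h and from -3.77 to 0.69 at 3 h in their SA differences. AT5G39410, of the saccharopine dehydrogenase family, was at -1.58, -1.39 and -0.94 (lowest, median, highest) in water ZT24 and at 0.94, 1.32 and 1.42 in water ZT36. It read -1.56, -1.72 and -1.33 in SA ZT24 0 h, 1.45, 1.37 and 1.33 in SA ZT36 0 h, -2.20, -2.45 and -2.64 in SA ZT24 3 h, and 1.17, 1.44 and 1.40 in SA ZT36 3 h. The SA ZT36 arrays lay near the water ZT36 arrays, and SA ZT24 3 h was the lowest group. The SA differences were -2.92 ± 0.15 (adjusted p = 8.6e-12) and -3.77 ± 0.15 (adjusted p = 1.6e-13), 113% and 144% of those in water.

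AT5G43440, a gene of the 2-oxoglutarate and iron-dependent oxygenase family, was among the members with little difference in SA. It was at -2.72, -2.48 and -1.88 (lowest, median, highest) in water ZT24 and at 1.07, 1.13 and 1.33 in water ZT36. In SA ZT24 it read -0.83, 0.17 and -0.00 at 0 h and 0.06, 0.10 and 0.34 at 3 h, and in SA ZT36 -0.31, 0.17 and -0.07 at 0 h and -0.02, -0.19 and 0.00 at 3 h. All SA arrays lay between the water groups. The SA groups overlapped at 0 h, and the differences of -0.15 ± 0.19 (adjusted p = 0.60) and 0.23 ± 0.19 (adjusted p = 0.40) did not pass.

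Of the 9 metabolic genes, 5 were lower at ZT24 in SA at each label. The acid phosphatase gene AT2G39920 differed by -2.22 ± 0.24 and -2.67 ± 0.24, and AT3G47800, which encodes a galactose mutarotase-like protein, by -0.64 ± 0.15 and -0.63 ± 0.15, the latter call being lost after quantile normalization (-0.43, adjusted p = 0.097). AT5G57655, of the xylose isomerase family, did not pass at 0 h (-0.44 ± 0.24) and was lower at 3 h with overlapping groups (-0.85 ± 0.24, adjusted p = 0.0099). The adjusted p rose to 0.063 or 0.058 when replicate 1 or 2 of SA ZT24 3h was left out. It rose to 0.057 without replicate 1 of SA ZT36 3h and to 0.056 with only the arrays compared. AT1G70820, of the phosphoglucomutase family, was at 0.59 ± 0.28 and 0.69 ± 0.28, opposite in sign to water, and did not pass (adjusted p = 0.14 and 0.071). AT4G33150, whose enzyme lysine-ketoglutarate reductase and saccharopine dehydrogenase starts lysine breakdown, was at 0.24 ± 0.59 and -0.77 ± 0.59 and did not pass. It read 1.33, 1.96 and 4.13 in water ZT36 0 h, so the water difference that made it a member comes from widely spread arrays. The standard error of 0.59 takes in that spread. Its SDs at ZT24 and ZT36 were 0.25 and 0.26 in SA 0 h and 0.32 and 1.28 in SA 3 h.

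Of the 5 protein turnover genes, 2 were lower at ZT24 in SA at each label and 1 was higher at 3 h. The aspartyl protease family gene AT4G33490 differed by -2.40 ± 0.18 and -1.83 ± 0.18, and the RING finger gene AT3G47160 by -0.81 ± 0.13 and -0.87 ± 0.13, beside -3.84 in water. The other aspartyl protease family gene, AT5G19120, stood at 0.70 ± 0.29 at 0 h (adjusted p = 0.085) and -0.31 ± 0.29 at 3 h. AT2G18670, a RING finger gene and the one member higher at ZT24 in SA at 3 h, read 0.16, 0.02 and 0.48 in SA ZT24 3 h and -0.18, -0.46 and -0.32 in SA ZT36 3 h. Those groups did not overlap, and the difference was 0.54 ± 0.11 (adjusted p = 0.0011), the opposite sign of its -2.03 in water.

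Signalling and transport genes included the one member higher at ZT24 in SA at 0 h, AT1G22570, a transporter of the major facilitator family. AT1G22570 was at -1.84, -1.36 and -0.94 (lowest, median, highest) in water ZT24 and at 0.93, 1.19 and 1.49 in water ZT36. It read 0.68, 1.48 and 0.63 in SA ZT24 0 h against 0.08, -0.10 and -0.30 in SA ZT36 0 h, and -0.04, -0.50 and 0.49 in SA ZT24 3 h against -0.03, 0.03 and -0.23 in SA ZT36 3 h. The SA 0 h groups stood apart in the order opposite to water (1.04 ± 0.23, adjusted p = 0.0022), and the SA 3 h groups overlapped (0.06 ± 0.23).

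Of the 9 genes in this class, 6 were lower at ZT24 in SA at 0 h and 5 at 3 h. The other transporter, AT4G34950, differed by -3.02 ± 0.42 at 0 h and -1.58 ± 0.42 at 3 h (-1.23, adjusted p = 0.064, after quantile normalization). It read -2.97, -1.04 and -0.78 in SA ZT24 0 h (SD 1.20), so its 0 h difference and its share of 156% come from a widely spread group. The protein kinase gene AT3G59350 differed by -1.79 ± 0.22 and -1.88 ± 0.22, and the heavy-metal-associated domain gene AT1G51090 by -1.998 ± 0.30 and -0.92 ± 0.30. The 3 h call of AT1G51090 (adjusted p = 0.027) was lost after quantile normalization (-0.67, adjusted p = 0.19) and with only the arrays compared (adjusted p = 0.075). It was also lost when replicate 1 of SA ZT36 3h (-0.50, adjusted p = 0.21) or replicate 1 or 3 of SA ZT24 3h (0.065 and 0.086) was left out. AT1G33970, an AIG1-type GTP-binding protein gene, did not pass (0.10 and 0.32).

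Genes known by a domain alone were called lower at ZT24 in SA at 7 of 8 at 0 h and 6 of 8 at 3 h. The neighbours AT1G21670 and AT1G21680, with TolB-like repeats, differed by -0.73 ± 0.16 and -1.56 ± 0.11 at 0 h and by -0.94 ± 0.16 and -1.82 ± 0.11 at 3 h. The DUF538 genes AT5G16380 and AT4G02370 were at -1.85 ± 0.15 and -0.96 ± 0.15 at 0 h, and at 3 h AT5G16380 passed (-1.68 ± 0.15) while AT4G02370 did not (-0.35 ± 0.15, adjusted p = 0.098).

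Among the 33 members given no family, 24 were lower at ZT24 in SA at 0 h and 23 at 3 h. AT4G16146 was at -2.93, -2.45 and -2.17 (lowest, median, highest) in water ZT24 and at 3.00, 3.21 and 3.27 in water ZT36. It read -2.90, -2.60 and -2.44 in SA ZT24 0 h, 2.94, 2.90 and 2.90 in SA ZT36 0 h, -2.42, -2.02 and -2.28 in SA ZT24 3 h, and 2.02, 2.12 and 2.38 in SA ZT36 3 h. Its SA 0 h arrays lay close to the water arrays at each time, and SA ZT36 3 h lay below them. The SA differences were -5.56 ± 0.15 (adjusted p = 5.6e-16) and -4.42 ± 0.15 (adjusted p = 1.4e-14). AT1G17665 differed by -3.08 ± 0.19 and -2.80 ± 0.19 in SA, beside -3.51 in water, and AT3G15630 by -1.14 ± 0.21 and -1.67 ± 0.21, beside -3.75. AT4G16000 was at 0.65 ± 0.31 and 0.35 ± 0.31 and did not pass.

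**Figure D3:**
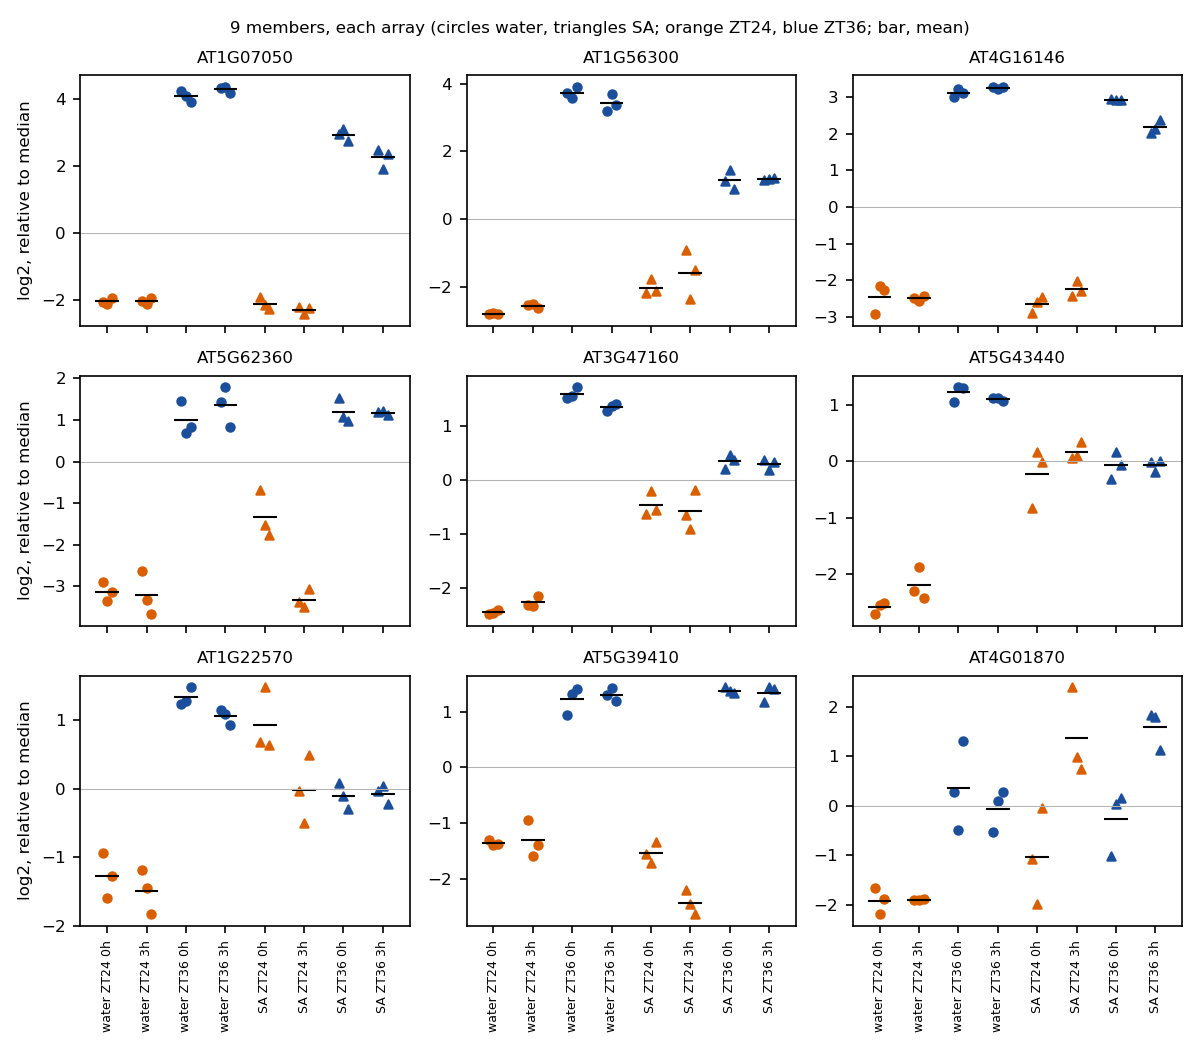
Log2 expression relative to the probe set median of 9 members in each array, by group (circles water, triangles SA, orange ZT24, blue ZT36, black bars the means of 3 arrays). AT4G16146 and AT5G39410 keep the separation of the times in SA, AT3G47160 keeps a smaller one, AT5G43440 shows none that passed, and AT1G22570 is inverted at 0 h.

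Members with nearly the whole water difference in SA were few. A share of at least 90% at both labels was seen at 6 members, AT5G39410, AT5G14550, AT1G26665, AT2G21130, AT1G53035 and AT2G25730, and a share within 10% of 0 at both labels at 4, AT5G43440, AT3G53990, AT1G22890 and AT2G27830. These limits were set after the values were seen. AT5G14550 differed by -2.57 ± 0.11 and -2.28 ± 0.11 in SA, AT2G25730 by -2.17 ± 0.09 and -2.19 ± 0.09, and AT1G53035 by -1.997 ± 0.15 and -1.84 ± 0.15.

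Against water of the same label, the median of the members lay above 0 at ZT24 and below 0 at ZT36. These differences use the water arrays that chose the members and have no test. The SA 0 h minus water 0 h difference had a median of 0.64 at ZT24, with 69 of 85 members above 0, and of -1.16 at ZT36, with 80 below 0, beside medians over all probe sets of -0.01 and -0.03. At 3 h the medians were 0.25 (51 above 0) and -1.12 (80 below 0), beside -0.03 and -0.02. SA 0 h lay above water 0 h with no overlap at ZT24 at 52 members, below it with no overlap at ZT36 at 72, and did both at 46. At 3 h these counts were 40, 65 and 27. In either direction, SA and water stood apart at 0 h at 31.9% of all probe sets at ZT24 and 40.7% at ZT36, and at 3 h at 44.9% and 50.1%. The member counts in either direction were 58 and 72 at 0 h, and 61 and 68 at 3 h. Shares of all probe sets in 1 direction, or doing both, were not computed. The highest member difference at ZT24 and 0 h was that of AT1G70820, 2.65, and the lowest at ZT36 and 0 h that of AT5G39520, -3.07. Both were named after their values were seen, and AT5G39520 read 0.79, 2.90 and 5.43 in water ZT36 0 h, so its groups there were widely spread. In bulk leaf samples, fewer cells of a type and less RNA per cell cannot be told apart.

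From 0 h to 3 h in water, no member passed the test at either time of treatment. These tests use the water arrays that chose the members, and a high ZT36 array can bring a gene past the threshold. AT2G37130, AT4G33150 and AT5G39520 differed between the times by -2.86, -2.75 and -3.06 at 0 h and by -1.27, -1.42 and -1.53 at 3 h. The part of the choice in these changes was not tested. At ZT24 the changes ran from -0.24 to 0.79 with a median of 0.09, and limma with Benjamini-Hochberg adjustment called 0 members, with 10 at an unadjusted p under 0.05. Of all 22746 probe sets, 728 had such an unadjusted p, and 0% were called lower and 0% higher. At ZT36 they ran from -1.65 to 0.58 with a median of -0.16, and limma with Benjamini-Hochberg adjustment called 0 members, with 17 at an unadjusted p under 0.05. Of all probe sets, 3049 had such an unadjusted p, and 0% were called lower and 0.00879% higher. Calls at ZT36 depended on single arrays. Without water ZT36 0h replicate 1, 5 members were called lower, AT1G76590 (-0.93), AT2G38465 (-0.83), AT5G39520 (-2.78), AT1G69890 (-0.54) and the peroxidase gene AT2G37130 (-1.69). Without water ZT36 3h replicate 3, 3 were, AT2G15880 (-1.02), AT1G69890 (-0.70) and AT2G37130 (-1.61). Shares of all probe sets called without these arrays were not computed, so the counts of 5 and 3 have no like background. At AT5G39520 the water ZT36 0 h arrays left without replicate 1 read 2.90 and 5.43, a wide spread.

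Between SA 0 h and SA 3 h, 25 members fell and 12 rose at ZT24, where 17.4% of all probe sets fell and 14.3% rose. At ZT36, 32 members fell and 8 rose, where 16.4% fell and 13.3% rose. After quantile normalization the split was 17 falls and 20 rises at ZT24 and 50 falls and 5 rises at ZT36. The shares of all probe sets that fell or rose after quantile normalization were not computed. The SD over all probe sets within an array ran from 0.55 to 0.65 in SA 3 h and from 0.29 to 0.36 in SA 0 h, and its part in these counts was not tested. The medians were -0.17 and -0.27, beside -0.03 and -0.01 over all probe sets. Falls passed at both times for 20 members and rises for 6, 35 members passed at neither, and 1 member, AT4G16146, passed with opposite signs.

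AT4G01870, a gene with TolB-like repeats, rose most. It read -1.08, -1.99 and -0.04 in SA ZT24 0 h and 2.40, 0.99 and 0.74 in SA ZT24 3 h, and -1.01, 0.04 and 0.16 in SA ZT36 0 h and 1.83, 1.80 and 1.12 in SA ZT36 3 h. The 3 h arrays lay above all 0 h arrays at both times, with wide spread inside the groups. The rises were 2.41 ± 0.48 (adjusted p = 0.00041) and 1.86 ± 0.48 (adjusted p = 0.0047). AT4G02370, a DUF538 gene, rose by 1.63 ± 0.15 and 1.02 ± 0.15, and AT1G70420 by 0.99 ± 0.22 and 0.92 ± 0.22. AT1G69890 rose by 0.96 ± 0.13 at ZT24 and was at 0.33 ± 0.13 at ZT36 (adjusted p = 0.057), and AT5G19120 rose by 0.95 ± 0.29 at ZT36, which no longer passed when replicate 1 (adjusted p = 0.055) or replicate 2 (0.053) of SA ZT36 0h was left out.

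Falls were led at ZT24 by AT5G62360 (-1.996 ± 0.29, adjusted p = 1.2e-05), AT5G45310 (-1.57 ± 0.21), AT1G13930 (-1.40 ± 0.11) and AT4G30650 (-1.24 ± 0.23). The AT4G30650 call was lost after quantile normalization (-0.70, adjusted p = 0.11). At ZT36 the largest falls were those of AT4G33960 (-2.69 ± 0.38, adjusted p = 1e-05), the lipase family gene AT4G01130 (-1.99 ± 0.20), AT5G45310 (-1.70 ± 0.21) and the universal stress protein gene AT3G62550 (-1.55 ± 0.20). Cell wall and secreted protein genes fell at 5 of 8 at ZT24 and 3 of 8 at ZT36, and chaperone and stress protein genes at 4 of 7 at each time. Of all probe sets, 17.4% and 16.4% fell. Among these ZT24 calls, AT4G30660 was lost after quantile normalization (-0.08, adjusted p = 0.86). Without replicate 3 of SA ZT24 0h AT3G53990 did not pass (adjusted p = 0.059), nor did AT2G37130 without replicate 2 (0.06). The ZT36 call of AT4G30650 was lost with only the arrays compared (adjusted p = 0.079).

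**Figure D4:**
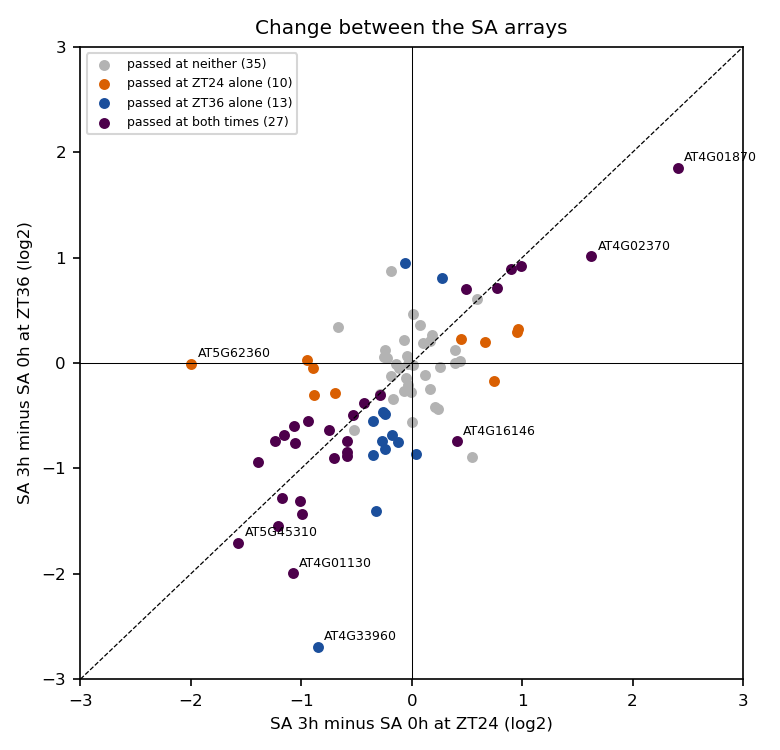
Change from SA 0 h to SA 3 h on the log2 scale at ZT36 (vertical axis) against ZT24 (horizontal axis) for the 85 members, coloured by whether limma's test passed at both times (27), at ZT24 alone (10), at ZT36 alone (13) or at neither (35). AT4G01870 and AT4G02370 lie in the upper right, most members that passed lie in the lower left, and AT5G62360 lies on the horizontal zero line with a change of -1.996 at ZT24.

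The difference of these changes between the times, which is also the difference of the SA contrast between 3 h and 0 h, passed at 3 members, 1 lower and 2 higher, where 0.193% and 0.404% of all probe sets were called. AT5G62360 fell more at ZT24, by -1.99 ± 0.41 (adjusted p = 0.024). AT4G16146 was higher by 1.15 ± 0.22 (adjusted p = 0.018), having risen by 0.41 ± 0.15 at ZT24 and fallen at ZT36 (-0.74 ± 0.15), and the MYND-type zinc finger gene AT5G50450 by 0.63 ± 0.14 (adjusted p = 0.038). The ZT24 rise of AT4G16146 (adjusted p = 0.047) was lost under 6 of the alternatives, among them leaving out replicate 1 of SA ZT24 0h (0.28, adjusted p = 0.23) or replicate 2 of SA ZT24 3h (0.30, adjusted p = 0.20). None of the 3 calls held under every alternative. AT5G62360 was lost after quantile normalization (-0.62, adjusted p = 0.65) and when replicate 1 of SA ZT24 0h (-1.67, adjusted p = 0.067), replicate 2 or 3 of SA ZT36 0h (0.067 and 0.065) or replicate 1 or 2 of SA ZT36 3h (0.051 and 0.067) was left out. AT4G16146 no longer passed when replicate 2 of SA ZT36 3h was left out (1.12, adjusted p = 0.051). AT5G50450 was lost with a trended and robust prior (adjusted p = 0.22) and without any 1 of the SA arrays other than SA ZT24 0h replicate 2 and SA ZT24 3h replicate 3 (adjusted p up to 0.11). Quantile normalization gave 36 members higher in place of 2. The share of all probe sets called after it was not computed, so the count of 36 has no like background.

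Clock and related genes that are no members were set beside them from lists. Genes on these lists were analysed where a probe set could be matched to them by 1 symbol. Of 13 evening clock genes, 3 were matched: GI, the scaffold protein gene GIGANTEA, COR27, a cold-regulated repressor, and AT4G33980, left out by name. Their SA differences of ZT24 minus ZT36 were -0.41 ± 0.20 (adjusted p = 0.16), -4.45 ± 0.22 and -4.16 ± 0.12 at 0 h and -0.67 ± 0.20 (adjusted p = 0.017), -3.57 ± 0.22 and -3.88 ± 0.12 at 3 h, so 2 of 3 were lower at 0 h and 3 of 3 at 3 h. The water 0 h differences were -4.10, -6.21 and -6.14. The 1 of 12 morning clock genes that was matched, RVE6, did not pass (-0.13 and 0.07).

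Of 14 sugar starvation genes, 4 were matched and did not pass in SA (adjusted p from 0.25 to 0.99 at 0 h and from 0.28 to 0.55 at 3 h). These were the leucine breakdown genes MCCA (0.49 ± 0.30 at 0 h), MCCB (0.24 ± 0.18) and IVD (-0.01 ± 0.25), and AT3G15450 (0.65 ± 0.39), beside water 0 h differences of -3.98, -1.81, -2.85 and -5.56. Of 15 cold and dehydration genes, 4 were matched, of which 2 were lower at ZT24 in SA at 0 h and 3 at 3 h. COR15B, a chloroplast cold-protection protein gene, differed by -2.56 ± 0.28 and -2.41 ± 0.28 and the dehydrin gene COR47 by -0.75 ± 0.26 and -2.07 ± 0.26. COR15A did not pass at 0 h (-0.24 ± 0.42, adjusted p = 0.72) and was lower at 3 h (-1.65 ± 0.42, adjusted p = 0.0047). LTI30 did not pass at 0 h (-0.14 ± 0.68) or at 3 h (-1.71 ± 0.68, adjusted p = 0.068). The guard cell gene FMA differed by -0.38 ± 0.11 at 0 h (adjusted p = 0.018) and -0.29 ± 0.11 at 3 h (adjusted p = 0.065), and its part in the members' results was not tested. MYB60 and the 3 root genes on the lists were not analysed here. Of the 8 SA response genes, the 3 that were matched, GRX480, WRKY53 and UGT76B1, did not pass between the times in SA at 0 h (adjusted p = 0.98, 0.37 and 0.081). At 3 h 2 of 3 did, GRX480 by -0.87 ± 0.13 and UGT76B1, an SA glucosyltransferase gene, by -0.44 ± 0.13.

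Over the 12 SA arrays, the genes that are no members and whose values correlated best with the mean of the members were AT4G19110 (r = 0.995), the serine carboxypeptidase-like gene SCPL49 (r = 0.994), the gibberellin receptor gene GID1A (r = 0.988), AT4G34560 (r = 0.987) and the asparaginase gene ASPGA1 (r = 0.987). The arrays fall into 4 groups, so these are descriptions over few levels. In water these genes differed between the times at 0 h by -0.83, -1.62, -2.02, -0.03 and -1.05, so AT4G34560 followed the members in SA (-1.26 at 0 h) and had nearly no difference in water.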

How the data were processed

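Transcripts of true leaves were measured on 24 arrays, 8 groups of 3 by treatment, time of treatment and hours after treatment, as the labels give them. The deposited log2 values were made with RMA, per the submitters' processing notes (version not given in the sources used here), and a check of the table found every probe set centred on its median of the 24 arrays. The log base was taken as 2, as RMA gives, since the labels do not state it. Depth does not apply to arrays, and 3 per group limits the precision.

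Of 22810 probe sets, 64 control probe sets were left out. Names came from the platform table updated through the RefSeq TAIR10.1 gene table (13436 of 13513 probe sets with 1 symbol matched). limma 3.58.1 in R 4.3.3 fitted 1 mean per group to all arrays (lmFit and eBayes, 16 residual and 4.03 prior degrees of freedom), with two-sided tests and Benjamini-Hochberg adjustment over 22746 probe sets at 0.05, checked on simulated data. Alternatives were quantile normalization, only the arrays compared, a trended and robust prior, leaving out the 25% of probe sets with the lowest SD, a block on runs of title numbers, and leaving out each array.

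Members and lists were chosen with earlier results of these data known. Genes named were the 12 with the most negative water difference, the 3 on each side of the threshold, the 4 largest rises and falls among members that passed, the 4 smallest and largest SA 0 h differences, up to 6 per class, up to 4 per list, and the 5 genes most like the members' mean, beside some named after their values were seen, as the text says. Classes were planned from product names and rest on general knowledge instead. Promoter motifs were not analysed here.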

Additional observations from a re-analysis of the deposited data

Results flagged for a closer look

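The change from SA 0 h to SA 3 h differed between ZT24 and ZT36 at 3 members by limma's test of the difference itself. AT4G16146 differed by 1.147, AT5G62360 by -1.99 and AT5G50450 by 0.6294, each as the ZT24 change minus the ZT36 change on the log2 scale. At 46 members SA 0 h lay above water 0 h at ZT24 and below it at ZT36, with no overlap of arrays at either time, and at 27 at 3 h. In either direction, SA 0 h and water 0 h stood apart at 31.9% of all probe sets at ZT24 and 40.7% at ZT36. At 3 h these shares were 44.9% and 50.1%. The share of all probe sets that do both in these directions was not computed, so the counts of 46 and 27 have no like background. The difference between SA and water was not tested because the water arrays chose the members.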

How the results depend on the processing

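The choice of members gave 85, 93 after quantile normalization (84 shared) and 77 to 90 without single arrays. All 58 calls between the times in SA 0 h held under every alternative, as did 44 of 55 in SA 3 h, 20 of 37 for the SA change at ZT24, 29 of 40 at ZT36 and 0 of 3 for the difference of changes. Quantile normalization, which makes the array SDs equal, gave 5 members higher at ZT24 in SA 0 h in place of 1, 20 rises at ZT24 in place of 12, 50 falls and 5 rises at ZT36 in place of 32 and 8, and 36 members higher in the difference of changes in place of 2. It turned AT3G02630, which had fallen at ZT24 (-0.29), to 0.0444 (adjusted p = 0.86). With only the arrays compared, no water array entered the spread in the SA tests. Then 60 members were lower at ZT24 in SA 0 h in place of 57, and 56 in SA 3 h in place of 54. Under this setting 3 members were higher at ZT24 in SA 0 h and 2 in SA 3 h, each in place of 1. A trended and robust prior gave 1 higher in the difference of changes. The cause of these moves was not tested. Sizes moved too: over the alternatives the SA 0 h difference of AT1G07050 ran from -7.435 to -4.982. That of AT4G16146 ran from -7.846 to -5.438. Shares of all probe sets called under the alternatives were not computed, so the member counts under them have no like background. The shares of the water difference were not computed under the alternatives either.

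Leaving out single arrays gave 1 to 2 members higher at ZT24 in SA 0 h (2 without SA ZT24 0h replicate 2), 1 to 3 in SA 3 h (3 without SA ZT24 3h replicate 1), 0 to 5 falls in water at ZT36, 7 to 14 rises in SA at ZT24 (7 without SA ZT24 0h replicate 1), and 0 to 2 lower and 0 to 3 higher in the difference of changes. The median r of deviations over all probe sets was 0.04 for arrays of the same run of title numbers (range -0.359 to 0.45). It was -0.024 for arrays of different runs (range -0.566 to 0.405). Both medians lay near 0, and a replicate effect on the members alone was not tested. With the replicate block 2 members were higher at ZT24 in SA 3 h in place of 1, and 58 and 55 were lower in SA 0 h and SA 3 h.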
